A study of Rattus norvegicus with 9 samples.

Results

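The 8 genes described here encode activity-induced factors: the zinc finger transcription factors Egr1, Egr2 and Egr3, the orphan nuclear receptors Nr4a1, Nr4a2 and Nr4a3, the synaptic capsid-like protein Arc and the nuclear protein Ier2. They were chosen by symbol. The count table held 7 of the 8 among 30446 genes, and all 7 passed the low-count filter that left 16627 genes for testing. Ier2 was not analysed here. RNA came from male rats of the Sprague-Dawley strain, from dorsal root ganglia, which hold the cell bodies of sensory neurons together with their glia. The 9 libraries were 3 from rats with a spinal cord injury (SCI), 3 from rats with a sham operation and 3 from naive rats. The ganglia of both sides from the twelfth thoracic to the sixth lumbar level were assayed, and all libraries carry the label of 30 days after injury, the naive ones included. The labels do not tell whether a library was 1 animal or a pool, how the cord was injured or what the sham operation involved. The p-values therefore cover only differences from library to library, which may in part be technical.

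Immediate early genes are transcribed within minutes of a stimulus, without new protein synthesis, when calcium and growth factor signals reach the transcription factors SRF and CREB. In neurons Egr1, Egr3, Nr4a1 and Arc are used as reporters of recent firing, and Egr and Nr4a proteins in turn switch on later genes. Egr2, also called Krox20, has a further role as the master regulator of myelination in Schwann cells, which surround axons in the ganglion and its roots, so its transcript in whole ganglia need not come from neurons. Nr4a2 is also known for its role in dopamine neurons, and Egr3 for its role in the sensory innervation of muscle spindles.

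The bases upstream of the gene start were read from RefSeq promoter sequences of build GRCr8 for the 4 members whose results are set against each other below. The upstream window of Egr1 lies at chr18:26736828-26737077 on the plus strand and that of Egr2 at chr20:21054442-21054691 on the minus strand. The window of Nr4a1 lies at chr7:134259888-134260137 on the plus strand and that of Nr4a2 at chr3:62104888-62105137 on the minus strand. Each line gives the 250 bases before the start, 5′ to 3′ on the strand of the gene. Capitals mark CArG boxes, the sites of SRF, and the core TGACG of the cAMP response element on either strand, which reads CGTCA on the other.
Egr1: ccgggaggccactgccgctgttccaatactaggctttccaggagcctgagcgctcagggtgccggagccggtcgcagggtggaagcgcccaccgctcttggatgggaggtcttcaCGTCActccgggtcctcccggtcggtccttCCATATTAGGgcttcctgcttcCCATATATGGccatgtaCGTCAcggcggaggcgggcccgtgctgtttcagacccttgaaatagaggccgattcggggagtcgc
Egr2: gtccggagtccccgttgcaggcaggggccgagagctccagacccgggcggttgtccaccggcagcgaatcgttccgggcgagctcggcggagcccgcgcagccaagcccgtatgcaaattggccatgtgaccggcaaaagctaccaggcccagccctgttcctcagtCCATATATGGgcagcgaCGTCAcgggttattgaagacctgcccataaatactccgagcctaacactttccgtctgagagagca
Nr4a1: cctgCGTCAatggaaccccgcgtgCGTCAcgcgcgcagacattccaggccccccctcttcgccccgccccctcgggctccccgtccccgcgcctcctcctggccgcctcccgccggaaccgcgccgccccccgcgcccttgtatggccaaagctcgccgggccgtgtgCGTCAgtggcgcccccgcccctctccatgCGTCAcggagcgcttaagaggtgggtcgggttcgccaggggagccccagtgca
Nr4a2: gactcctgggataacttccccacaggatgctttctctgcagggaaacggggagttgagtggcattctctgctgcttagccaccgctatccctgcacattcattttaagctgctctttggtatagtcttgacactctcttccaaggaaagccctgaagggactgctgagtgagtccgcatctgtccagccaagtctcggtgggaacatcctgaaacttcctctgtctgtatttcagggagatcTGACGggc
The CArG box ccatatatgg began at position -83 and the CRE core at position -66 in both Egr1 and Egr2, counted back from the start. Egr1 held a second CArG box at -105 and a second CRE core at -135. The Nr4a1 window held 4 CRE cores and no CArG box, and the Nr4a2 window held 1 CRE core and no CArG box. Of 33469 windows of this length in the table, 1.5% held a CArG box and 18.2% a CRE core. A match is a run of letters and not a measured binding site, and the start used for Nr4a2 is 1 of the starts an annotation may give. Egr3, Nr4a3 and Arc are not shown.

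Library totals ran from 16724878 to 32060538 counts. Summed markers of sensory neurons reached 35100 to 35500 CPM (counts scaled to the library total after TMM) in SCI, 31200 to 45900 CPM in sham and 31800 to 33300 CPM in naive. Markers of oligodendrocytes, the myelin cells of the cord, summed to 4.88 to 5.59 CPM in SCI, 4.76 to 4.78 CPM in sham and 6.01 to 7.16 CPM in naive. They were thus low in all libraries, with every naive library above all others, and 2 of the 5 markers passed the low-count filter. The sums of several marker lists of ganglion cells also parted naive from both other groups. Of 8 satellite glia markers, 3 rose and 1 fell in SCI as in sham against naive. At an adjusted p under 0.05, 50% of the list passed in each comparison, beside 48.5% and 50.6% of all genes. The median log2 changes of the list were 0.14 and 0.07. Its sums were 6640 to 7830 CPM in SCI, 6820 to 8890 CPM in sham and 3910 to 3980 CPM in naive, a wider gap than these medians. Myelinating Schwann cell markers summed to 18700 to 22800 CPM in SCI, 17300 to 21600 CPM in sham and 29500 to 31300 CPM in naive, and the list is described with Egr2 below. Of 6 fibroblast markers 4 fell and none rose in both comparisons, beside 24.6% of all genes lower in SCI and 25.9% in sham. They summed to 2200 to 2750 CPM in SCI, 1920 to 3280 CPM in sham and 3710 to 4330 CPM in naive. Pericyte and smooth muscle markers summed to 276 to 296 CPM in SCI, 261 to 361 CPM in sham and 216 to 229 CPM in naive. None of these markers was at 0 in all libraries. Their part in the members' differences from naive was not tested. In tissue samples of this kind, fewer cells of a type and less RNA per cell cannot be told apart. The naive libraries differed widely from both other groups: at a Benjamini-Hochberg adjusted p under 0.05, 48.5% of genes passed edgeR's test in SCI against naive and 50.6% in sham against naive. The labels give no batch, so an effect of injury or operation cannot be told apart from a batch that holds the naive libraries alone. The comparisons with naive also share their naive libraries.

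Egr1, the best known reporter of neuronal activity in the family, had its highest level in SCI and its lowest in naive ganglia. It stood at 25.5, 29.8 and 32.4 CPM in SCI 1 to 3, at 18.9, 24.2 and 27.1 CPM in sham 1 to 3, and at 16.1, 16.3 and 18.2 CPM in naive 1 to 3. All SCI and all sham libraries lay above every naive library, while SCI 1 lay below sham 3. The mean was 29.2 ± 3.51 CPM in SCI, 23.4 ± 4.16 CPM in sham and 16.9 ± 1.16 CPM in naive (SD, n = 3 each). Egr1 rose in SCI against naive (1.73-fold, log2 change 0.79, SE 0.12, edgeR adjusted p = 0.000197). It also rose in sham against naive (log2 change 0.46, SE 0.13, edgeR adjusted p = 0.0078). With the level of skeletal muscle markers as a covariate this call was lost (log2 change 0.33, SE 0.24, edgeR adjusted p = 0.363). These markers summed higher in every sham library than in any other library, so the covariate overlaps with group and the SE grew. A lost call in that fit cannot be told apart from lost precision.

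Egr2, the myelination factor, had the opposite order against naive. Its level was 28.7, 25.2 and 31.4 CPM in SCI 1 to 3, 20.9, 22.5 and 26.4 CPM in sham 1 to 3, and 40.3, 42.2 and 43.0 CPM in naive 1 to 3. Every naive library lay above all SCI and sham libraries, and the SCI and sham libraries overlapped. The mean was 28.4 ± 3.14 CPM in SCI, 23.3 ± 2.87 CPM in sham and 41.8 ± 1.40 CPM in naive (SD, n = 3 each). Egr2 fell in SCI against naive (log2 change -0.56, SE 0.09, edgeR adjusted p = 0.000346) and in sham against naive (log2 change -0.85, SE 0.10, edgeR adjusted p = 1.29e-05).

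Egr3 followed the order of Egr1 at a smaller size. It stood at 8.59, 9.05 and 6.82 CPM in SCI 1 to 3, at 5.55, 7.08 and 7.59 CPM in sham 1 to 3, and at 6.62, 6.14 and 5.27 CPM in naive 1 to 3. The lowest SCI library lay just above the highest naive library, and the sham libraries overlapped both. Egr3 rose in SCI against naive (log2 change 0.44, SE 0.15, edgeR adjusted p = 0.024). This call was lost when naive 2, naive 3, SCI 1 or SCI 2 was left out (adjusted p = 0.0519, 0.11, 0.0827 and 0.0935), with log2 changes of 0.46, 0.35, 0.40 and 0.37. Between sham and naive the log2 change of Egr3 was 0.16 (SE 0.15), which did not pass.

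**Figure D1:**
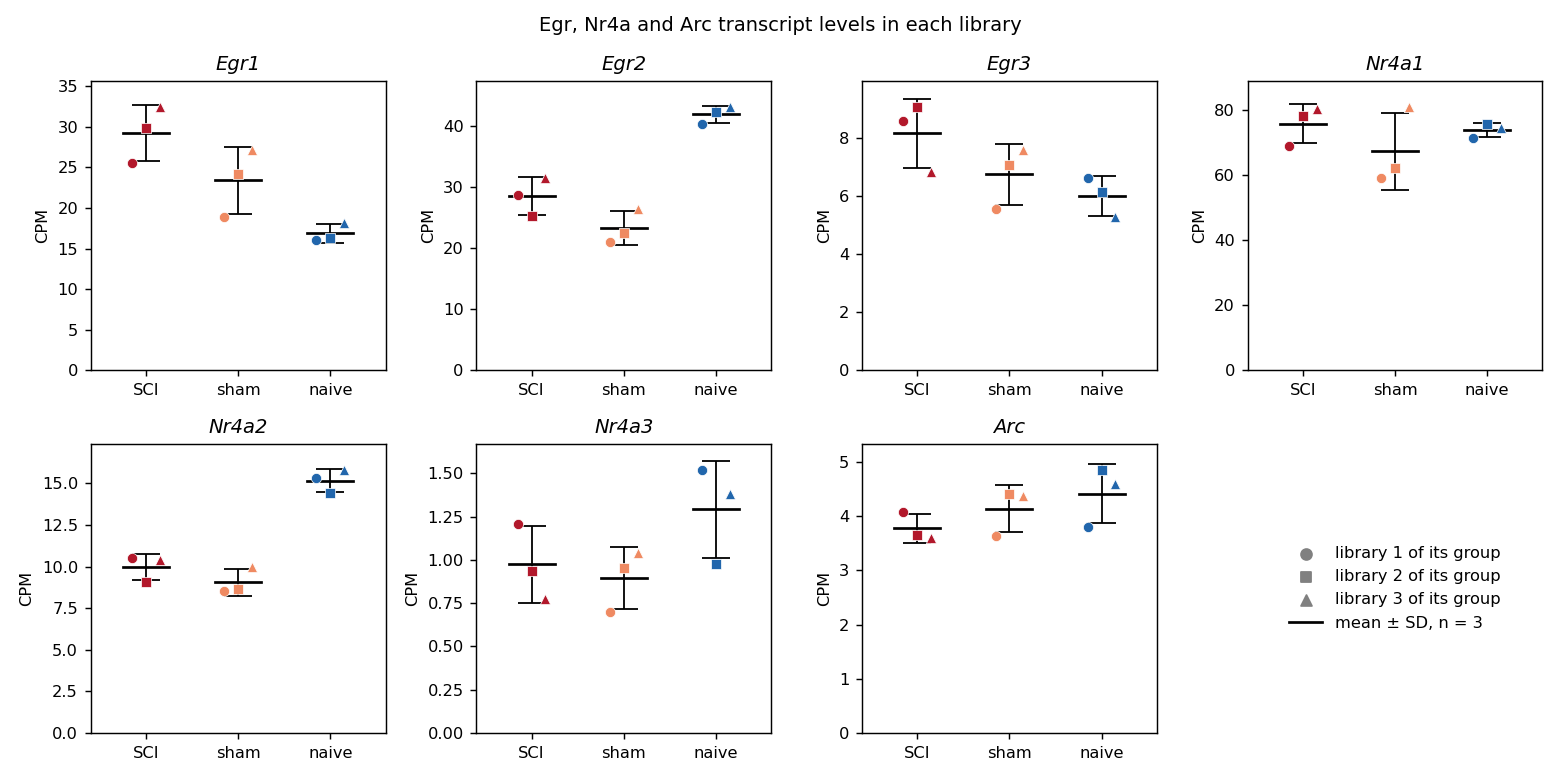
Level in CPM of each gene (vertical axes, from 0) in the SCI, sham and naive libraries, with a point for each library and the mean ± SD over 3 libraries. Egr1 is lowest and Egr2 and Nr4a2 are highest in the naive libraries, while the Nr4a1 and Arc libraries overlap between groups.

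Among the Nr4a receptors 1 was called against naive, Nr4a2, which fell in both operated groups. Nr4a1, or Nur77, stood at 69.0, 78.2 and 80.4 CPM in SCI 1 to 3, at 59.0, 62.1 and 80.9 CPM in sham 1 to 3, and at 71.6, 75.7 and 74.4 CPM in naive 1 to 3. The groups overlapped, with sham 3 above every other library and the other 2 sham libraries below all others. Its log2 change was 0.04 in SCI against naive (95% interval -0.18 to 0.26) and -0.14 in sham against naive (-0.36 to 0.09), neither of which passed. Without sham 3, Nr4a1 was called lower in sham than in naive, at a log2 change of -0.28 (SE 0.07, edgeR adjusted p = 0.00429).

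Nr4a2, or Nurr1, stood at 10.5, 9.10 and 10.4 CPM in SCI 1 to 3, at 8.52, 8.63 and 10.0 CPM in sham 1 to 3, and at 15.3, 14.4 and 15.8 CPM in naive 1 to 3. As for Egr2, every naive library lay above all others, with a wide gap to the highest of them. Nr4a2 fell in SCI against naive (log2 change -0.60, SE 0.10, edgeR adjusted p = 0.000277) and in sham against naive (log2 change -0.75, SE 0.10, edgeR adjusted p = 5.03e-05). Both calls held in each fit that left out 1 library, with log2 changes of -0.63 to -0.53 in SCI and -0.82 to -0.70 in sham.

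Nr4a3, or NOR-1, was the least covered member, with 17 to 39 reads in SCI, 16 to 21 in sham and 31 to 43 in naive libraries. It stood at 1.21, 0.939 and 0.773 CPM in SCI 1 to 3, at 0.698, 0.952 and 1.04 CPM in sham 1 to 3, and at 1.52, 0.976 and 1.38 CPM in naive 1 to 3. The groups overlapped, naive 2 lying among the operated libraries. The log2 changes were -0.37 in SCI against naive (95% interval -0.91 to 0.17) and -0.55 in sham against naive (-1.11 to 0.02). Neither passed, and at this depth a change of the size seen for Nr4a2 lay within both intervals. The sham change was called when naive 2 was left out (log2 change -0.71, adjusted p = 0.0477).

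Arc, which packages its own messenger RNA and weakens synapses by removing AMPA receptors, stood at 4.08, 3.66 and 3.59 CPM in SCI 1 to 3, at 3.64, 4.40 and 4.37 CPM in sham 1 to 3, and at 3.80, 4.85 and 4.59 CPM in naive 1 to 3. All 3 groups overlapped. The log2 change was -0.22 in SCI against naive (95% interval -0.53 to 0.09) and -0.11 in sham against naive (-0.42 to 0.20), and neither passed.

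Against naive, 2 of the 7 members thus rose (Egr1 and Egr3) and 2 fell (Egr2 and Nr4a2) in SCI, beside 23.9% of all tested genes called higher and 24.6% called lower. In sham, 1 rose and 2 fell, beside 24.7% of all tested genes higher and 25.9% lower. With 7 members, these counts are near the shares of all genes. The members whose groups did not overlap were the ones called, beside 64.1% of all genes in SCI against naive and 56.7% in sham against naive. Setting SCI against the mean of sham and naive, 1 member was called, Egr1 (log2 change 0.56, SE 0.11, edgeR adjusted p = 0.00469), beside 16.9% of genes called and 7.91% called higher. The groups overlapped in this comparison, SCI 1 lying below sham 3. Egr1 had a log2 change of 0.79 against naive, which was called, and of 0.32 against sham, which was not. The call against the mean of both was lost with the skeletal muscle covariate, where the log2 change was larger and the SE wider (0.64, SE 0.17, edgeR adjusted p = 0.0809). Without sham 3 the calls were Egr1, Egr3 and Nr4a1.

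**Figure D2:**
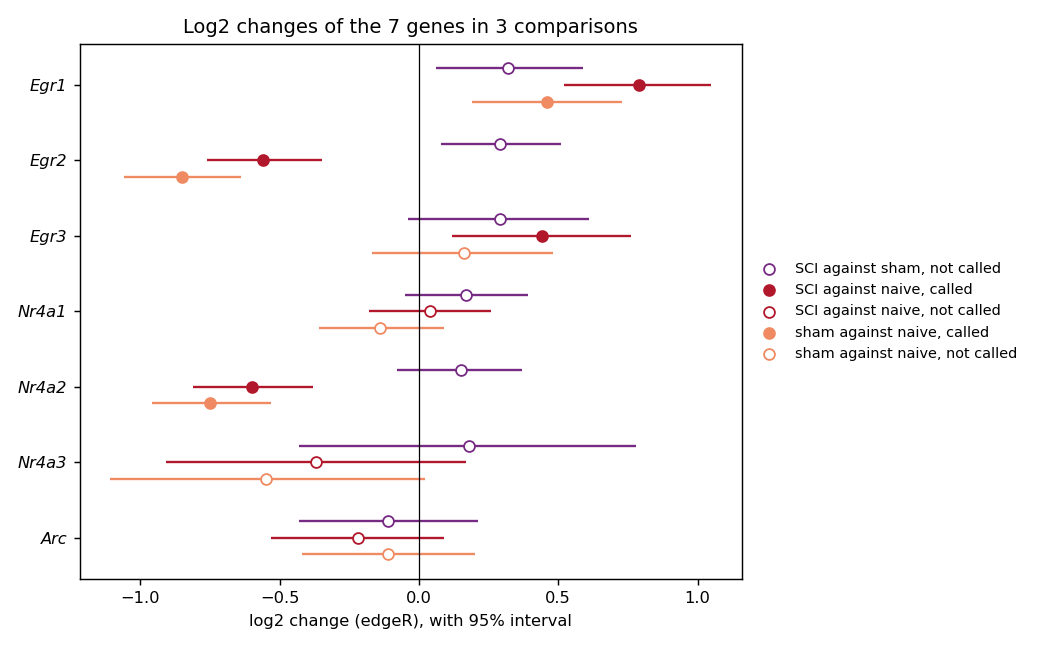
Log2 change of each gene (horizontal axis) with its 95% interval from the edgeR fit, in SCI against sham, SCI against naive and sham against naive, with filled points for an adjusted p under 0.05. Egr1 and Egr3 lie right of 0 and Egr2 and Nr4a2 left of 0 in SCI against naive, and no point is filled in SCI against sham.

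Ratios of reads between members of the same library need no scaling between libraries. Of 7 ratios computed, 5 parted naive from both operated groups and 2 did not. Egr2 had 1.12, 0.844 and 0.969 reads for each Egr1 read in SCI 1 to 3, 1.11, 0.929 and 0.976 in sham 1 to 3, and 2.50, 2.59 and 2.36 in naive 1 to 3. The SCI and sham ratios overlapped, and all naive ratios lay above them. Nr4a2 had 0.152, 0.116 and 0.130 reads for each Nr4a1 read in SCI 1 to 3, 0.145, 0.139 and 0.124 in sham 1 to 3, and 0.214, 0.190 and 0.212 in naive 1 to 3. Nr4a1 had 2.71, 2.62 and 2.48 reads for each Egr1 read in SCI 1 to 3, 3.12, 2.57 and 2.99 in sham 1 to 3, and 4.43, 4.65 and 4.09 in naive 1 to 3. For these 3 ratios, and for Nr4a2 to Egr1 and Arc to Egr1, the naive libraries lay above those of both other groups. Egr3 to Egr1 overlapped, at 0.337, 0.303 and 0.210 in SCI 1 to 3, 0.294, 0.292 and 0.280 in sham 1 to 3, and 0.410, 0.377 and 0.289 in naive 1 to 3. Nr4a3 to Nr4a1 overlapped as well, at 0.00962 to 0.0175 in SCI, 0.0118 to 0.0153 in sham and 0.0129 to 0.0212 in naive. The ratios are given as a description, with no test. A ratio shows unequal change and does not say which of its genes moved.

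**Figure D3:**
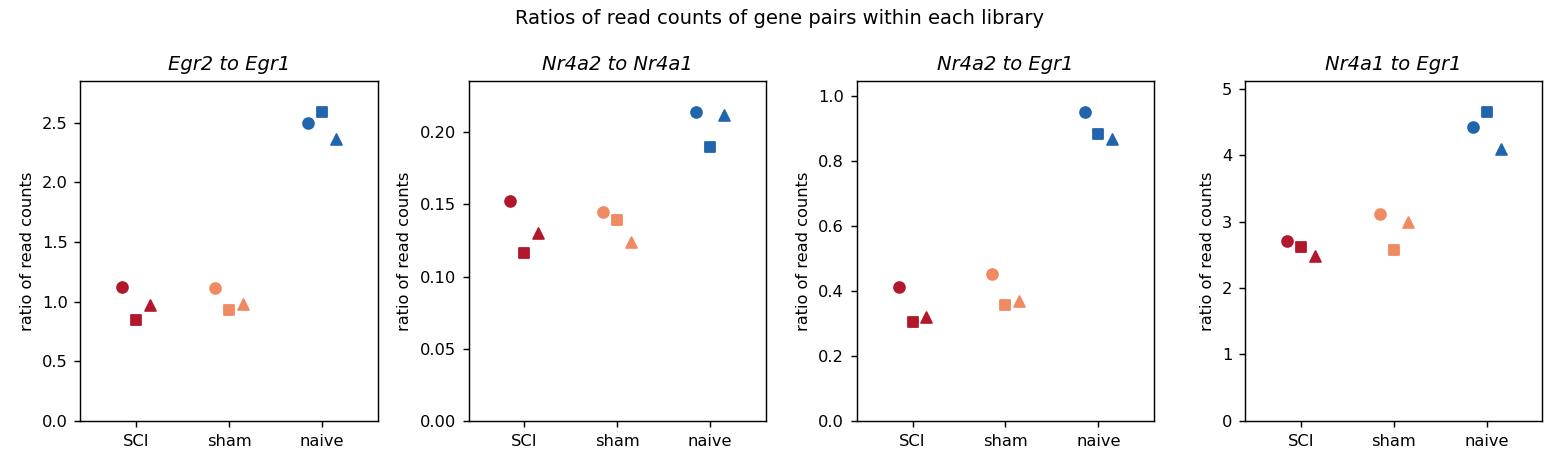
Ratio of read counts of gene pairs within each library (vertical axes, from 0) for SCI, sham and naive, with a point for each library. Egr2 to Egr1 lies between 2.36 and 2.59 in naive and at or below 1.12 in SCI and sham.

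Between SCI and sham, the comparison that asks what differed beyond the operation, none of the 7 members was called. The same edgeR test called 0% of all genes (526 of 16627 at an unadjusted p under 0.05), while DESeq2 called 9 and limma-voom 0. At an unadjusted p under 0.05 there were 2 members, Egr1 and Egr2, with each of these tools. Their log2 changes were 0.32 (95% interval 0.06 to 0.59, unadjusted p = 0.021) and 0.29 (0.08 to 0.51, unadjusted p = 0.0108). Among all genes, 3.16% had an unadjusted p that low. Egr3, Nr4a1, Nr4a2 and Nr4a3 had log2 changes of 0.29, 0.17, 0.15 and 0.18, and Arc of -0.11. The values of 6 of the 7 were thus positive, with a median of 0.18 beside -0.001 over all tested genes, and in none did the groups stop overlapping, as they did in 6.41% of genes. Without sham 1, 5 of the 7 were positive, with a median of 0.10, and the log2 change of Nr4a1 was 0.078. With each of the 9 libraries left out in turn, 1 to 4 members had an unadjusted p under 0.05.

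The spread of the sham libraries bears on that comparison. Sham 1 was the lowest sham library for all 7 members and sham 3 the highest for 6, with ratios of highest to lowest from 1.18 for Nr4a2 to 1.49 for Nr4a3. Sham 1 also had the highest summed sensory neuron markers, at 45900 CPM beside 35700 and 31200 CPM in sham 2 and sham 3, and the lowest summed Schwann cell markers, at 17300 CPM beside 18900 and 21600 CPM. Its fibroblast markers summed to 1920 CPM, beside 2680 and 3280 CPM in sham 2 and sham 3. The part of this in the members' levels was not tested. Leaving out sham 1 gave Egr1 a log2 change of 0.18 between SCI and sham, and leaving out sham 3 gave 0.45 (edgeR adjusted p over all left-out libraries 0.136 to 1). Skeletal muscle markers, of which 13 of 16 were tested and none was at 0 in all libraries, summed to 75.0 to 112 CPM in SCI, 150 to 173 CPM in sham and 83.8 to 122 CPM in naive. With their level as a covariate the SCI against sham log2 change was 0.48 (SE 0.26) for Egr1, 0.26 (SE 0.20) for Egr2 and -0.008 (SE 0.21) for Nr4a2. None of these passed, and each SE was wider than without the covariate.

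Schwann cell genes linked to Egr2, nearly all of them as its targets, lay lower in both operated groups. Of 15 tested, 13 fell and 1 rose in SCI against naive, with a median log2 change of -0.55 beside 0.011 over all tested genes. In sham against naive 13 fell and 1 rose as well, with a median of -0.60 beside 0 over all genes. The called share was 93.3% in both, beside 48.5% and 50.6% of all genes. Ugt8, which makes the galactolipids of myelin, stood at 152 ± 20.4 CPM in SCI, 142 ± 16.3 CPM in sham and 405 ± 18.2 CPM in naive (log2 change -1.41 in SCI and -1.51 in sham against naive). Fa2h, which hydroxylates their fatty acids, fell in SCI (log2 change -0.74) and in sham (-0.80) against naive. The gene of the list that rose was Sox10, which acts upstream of Egr2 in Schwann cells (log2 change 0.37, edgeR adjusted p = 0.0186 in SCI against naive). Between SCI and sham none of the 15 was called, and Mag, Cldn19 and Ugt8 had log2 changes of 0.13, 0.10 and 0.09.

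Of the 8 Schwann cell markers, which share genes with that list, 6 fell and none rose in each operated group against naive, and none was at 0. Among all genes 24.6% were called lower in SCI against naive and 25.9% in sham against naive. Egr2 had 1.26, 1.34 and 1.68 reads for each 1000 reads of these markers in SCI 1 to 3, 1.21, 1.19 and 1.23 in sham 1 to 3, and 1.33, 1.43 and 1.38 in naive 1 to 3. On this scale SCI and naive overlapped and sham lay below both. Against Sox10, Egr2 had 0.128, 0.0991 and 0.140 reads for each Sox10 read in SCI 1 to 3, 0.101, 0.113 and 0.0922 in sham 1 to 3, and 0.240, 0.227 and 0.228 in naive 1 to 3, so that naive lay above both other groups. Sox10 was itself called higher in SCI against naive, while the summed markers lay lower, so the scales differ. Neither ratio is a measure of Egr2 per Schwann cell. The part of Schwann cell number or of myelin transcripts in the level of Egr2 was not tested.

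Of 4 tested genes of proteins that act with Egr factors, 1 rose and 2 fell in SCI against naive, and none rose and 2 fell in sham. The called shares were 75% and 50%, beside 48.5% and 50.6% of all genes. The co-repressors Nab1 and Nab2, both known to bind Egr1 and Egr2, had log2 changes of opposite sign against naive in both operated groups. Nab1 fell against naive in SCI (70.8 ± 4.13 CPM in SCI and 92.5 ± 1.20 CPM in naive, with a log2 change of -0.38 and an adjusted p of 0.000579) and in sham (74.1 ± 5.88 CPM, log2 change -0.32, adjusted p = 0.00186). Nab2, itself an Egr1 target, rose in SCI against naive (28.4 ± 2.33 CPM in SCI and 21.7 ± 0.882 CPM in naive, with a log2 change of 0.39 and an adjusted p of 0.0309) and had a log2 change of 0.28 in sham that did not pass. The acetyltransferase Crebbp, a co-activator of CREB, fell in both (log2 change -0.74 in SCI and -0.75 in sham), and its relative Ep300 did not pass (log2 change -0.17 in SCI and -0.31 in sham). In SCI against sham none of these 4 was called, with log2 changes of 0.14 for Ep300, -0.06 for Nab1 and 0.11 for Nab2. Egr4 and Wt1 did not pass the low-count filter.

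Among 7 partners of Nr4a receptors, 3 rose and 3 fell against naive in SCI as in sham. The called share was 85.7% of these 7 genes, beside 48.5% of all genes in SCI and 50.6% in sham. Rxrb, a retinoid X receptor, the family with which Nr4a1 and Nr4a2 form dimers, rose in SCI and in sham (log2 changes 0.50 and 0.54). The co-activator Ncoa1 fell (-0.53 and -0.52), and so did Rcor1, the CoREST scaffold through which Nr4a2 represses (-0.56 and -0.49). In SCI against sham none was called, with log2 changes of -0.08 for Rcor1, -0.04 for Rxrb and 0.06 for Rxrg, another retinoid X receptor.

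Of 30 tested genes of the kinase and transcription factor pathway that switches these genes on, 5 rose and 7 fell in SCI against naive, and 7 rose and 9 fell in sham against naive, beside 48.5% and 50.6% of all genes called in these comparisons. The called shares of the list were 40% and 53.3%. The SRF partner Elk4 fell in sham (log2 change -0.70), and Mef2c, a factor at activity-dependent promoters, fell in SCI (-0.73). Elk4 is given for sham alone and Mef2c for SCI alone, which does not mean that they differed between SCI and sham. The kinases Rps6ka3 and Rps6ka5, which phosphorylate CREB and histone H3, fell in both (log2 changes -0.80 and -0.70 in SCI, -0.83 and -0.75 in sham). Between SCI and sham none was called, and the values with the smallest p were those of Atf1, Creb1 and Camk2d (log2 changes 0.26, 0.24 and 0.09).

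**Figure D4:**
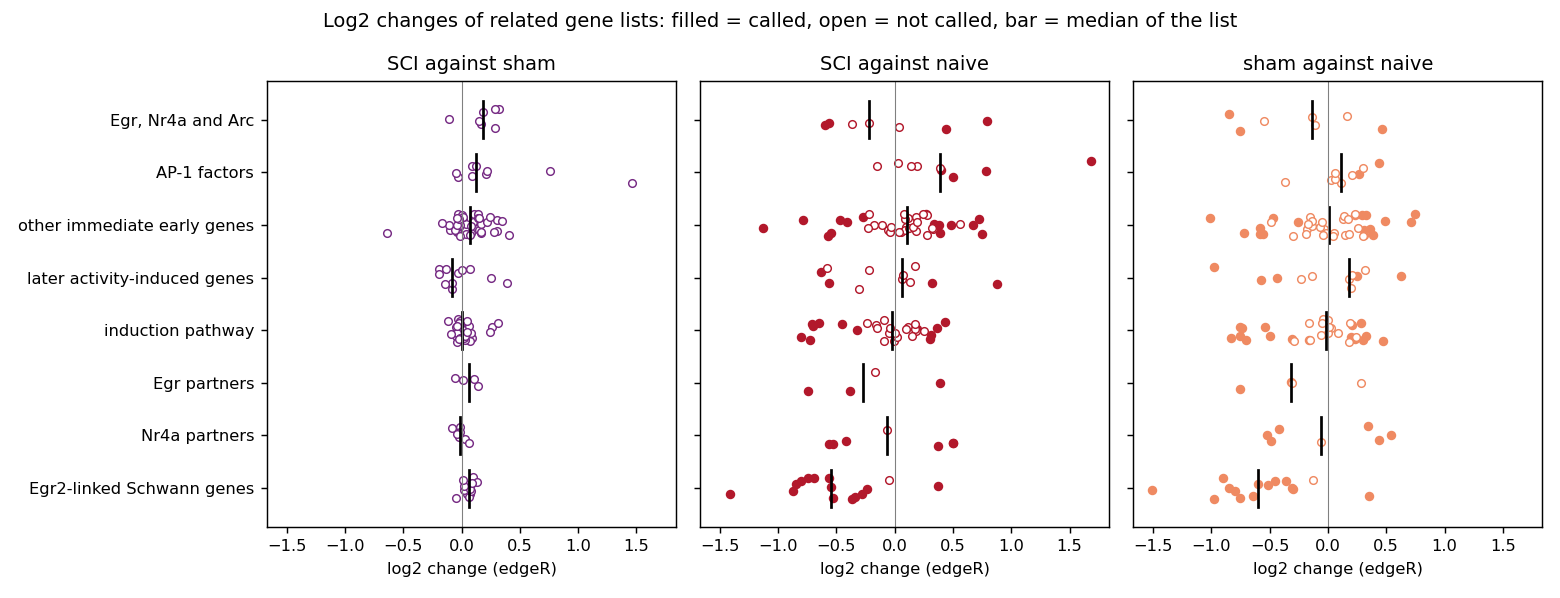
Log2 change of each tested gene (horizontal axis) of 8 gene lists in 3 comparisons, with filled points for an adjusted p under 0.05 and a bar at the median of the list. No point is filled in SCI against sham, and 13 of the 15 Egr2-linked Schwann cell genes are called lower in both comparisons with naive.

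The AP-1 factors, many of them induced by the same signals, had 8 of 9 values positive against naive in SCI (median log2 change 0.39, beside 0.011 over all genes) and in sham (0.11, beside 0). In SCI against naive 4 were called higher and none lower, namely Fos, Fosb, Junb and Atf3, with log2 changes of 0.78, 1.68, 0.40 and 0.50. The called share was 44.4%, beside 48.5% of all genes called and 23.9% called higher. In sham against naive 2 were called higher and none lower, Junb (0.27) and Maff (0.44), and Atf3 had a value of 0.30 that did not pass. The called share was 22.2%, beside 50.6% of all genes called and 24.7% called higher. In SCI against sham none was called. The groups did not overlap in 3 of the 9, all higher in SCI, beside 6.41% of all genes in either direction. The AP-1 factors with the smallest p had log2 changes of 0.76 (SE 0.15) for Fos, 1.46 (SE 0.34) for Fosb and 0.21 (SE 0.12) for Atf3 (edgeR adjusted p = 0.495, 0.957 and 1). Fos stood at 11.9 ± 0.746 CPM in SCI, 7.05 ± 1.54 CPM in sham and 6.87 ± 0.992 CPM in naive, and Fosb at 3.58 ± 1.94 CPM in SCI, 1.28 ± 0.273 CPM in sham and 1.1 ± 0.0935 CPM in naive (SD, n = 3 each).

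Of 40 other immediate early genes, 8 rose and 7 fell in SCI against naive, and 10 rose and 7 fell in sham against naive. The called shares, 37.5% and 42.5%, lay below the 48.5% and 50.6% of all genes. Ppp1r15a, a stress-induced phosphatase subunit, rose in SCI and in sham (log2 changes 0.72 and 0.75), as did Gadd45g (0.75 and 0.71). Klf6, a zinc finger factor, fell in both (-0.79 and -1.01), and Tiparp fell in sham (-0.72) as in SCI (-0.57). Between SCI and sham none of the 40 was called, and the smallest p among them belonged to Sgk1, Zfp36 and Nfkbia (log2 changes 0.35, 0.41 and 0.30).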

How the data were processed

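The deposited table gives read counts per gene as the authors made them, in whole numbers with no normalization, in 1 column for each of the 9 libraries. The labels' protocols name the RNeasy Mini Kit for extraction of total RNA and the TruSeq RNA Sample Prep Kit V2 for paired-end libraries. That kit does not mark strand, so a gene and an antisense gene over it share reads. Tools named in the submitters' processing notes are FastQC, Trimmomatic, TopHat2, HTSeq and DESeq2, while their versions, the genome build and the annotation were not given in the sources. Gene symbols came from the deposited table, and older symbols of list genes were matched through the RefSeq genes of assembly GRCr8, from which no coordinates were taken.

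Groups came from the sample titles. Tests were made by quasi-likelihood in edgeR (version 4.0.16, R 4.3.3), with TMM scaling, low counts filtered by group at the default setting, all 9 libraries in 1 fit and Benjamini-Hochberg adjustment over 16627 genes. CPM used TMM-scaled totals, and log2 CPM a prior count of 2. A gene at 1 CPM rests on 16.7 to 32.1 counts, depending on the library. Other settings tried were scaling by RLE or the upper quartile, no filter or a strict one (1 CPM in all libraries), DESeq2 (version 1.42.0), limma-voom (version 3.58.1), the compared groups alone, the replicate number as a block, the mean log2 CPM of skeletal muscle markers as a covariate, each library left out and an adjusted p under 0.1. The test was checked on simulated counts. The members, the gene lists and the naming rule were chosen with earlier results of these data known: all members, up to 3 genes of each other list with the smallest p in each pairwise comparison, and the 5 genes most alike. The rule also takes every called gene of these lists, and those not named are given by count, as are the cell type markers. Gadd45g in sham, Tiparp in SCI and Sox10 were named after their values were seen, and 1 gene among those with the smallest p is not reported here. Promoter windows matched 5 of the 8 symbols.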

Additional observations from a re-analysis of the deposited data

How the results depend on the processing

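Between SCI and sham the count of called genes was 0 in the edgeR test, 11 without a low-count filter and 9 with DESeq2, and ran from 0 to 22 with 1 library left out (22 without sham 3), while the count of called members stayed at 0 under all alternatives run. With the skeletal muscle covariate, sham against naive had 2773 called genes in place of 8407. In that fit SCI against the mean of sham and naive had 161 called genes and 0 called members in place of 2815 and 1. The covariate overlaps with group, so these losses cannot be told apart from lost precision. With 1 library left out, SCI against the mean of sham and naive ran from 879 called genes (without SCI 2) to 4934 (without sham 3) and from 1 to 3 called members. It had 2 called members without a filter and 3 at an adjusted p under 0.1.

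The direction turned only where the change was not called. With the muscle covariate this held for Nr4a2 (-0.008) and Nr4a3 (-0.47) in SCI against sham and Arc (0.071) in sham against naive. With 1 library left out, log2 changes ran from -0.043 to 0.31 for Nr4a3 in SCI against sham, from -0.009 to 0.10 for Nr4a1 in SCI against naive, and from -0.31 to 0.039 for Nr4a3 in SCI against the mean of sham and naive. The cause was not tested. Of 521 single-member values, 501 kept their direction and their side of the threshold. Over all genes there was no sign that replicate numbers pair the libraries. Deviations correlated at -0.095 to 0.124 between same-numbered libraries and at -0.132 to 0.156 between others. For single members the block moved the SE in SCI against sham both ways. It was 0.09 in place of 0.12 for Egr1, and 0.16 in place of 0.15 for Egr3. With the replicate number as a block, 0, 7848, 8153 and 2477 genes were called in the 4 comparisons, and the called members numbered 0, 4, 3 and 1, as without it. Fitting the compared groups alone could not be set apart for SCI against the mean of sham and naive, which uses all libraries, and Nr4a3 did not pass the strict filter. Depth limits Nr4a3 most, with 16 to 43 reads a library.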

Other observations

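Later activity-induced genes of neurons, which Egr, Nr4a and AP-1 factors help to switch on, were mixed in direction. Of 11 tested, 2 rose and 2 fell in SCI against naive, and 2 rose and 3 fell in sham against naive, called shares of 36.4% and 45.5% beside 48.5% and 50.6% of all genes. The neuropeptide galanin (Gal) stood at 11.0 ± 1.25 CPM in SCI, 9.33 ± 1.39 CPM in sham and 5.99 ± 0.393 CPM in naive, and rose in both operated groups (edgeR adjusted p = 0.000104 and 0.00129). Pcsk1, a convertase that processes neuropeptide precursors, fell in both (68.2 ± 1.64 CPM in SCI, 68.0 ± 7.49 CPM in sham and 101 ± 4.34 CPM in naive). Cartpt, a neuropeptide precursor, fell in SCI (9.12 ± 1.15 CPM in SCI and 14.0 ± 1.40 CPM in naive). Inhba, an activin subunit, fell in sham (0.490 ± 0.127 CPM in sham and 0.983 ± 0.0738 CPM in naive). Giving Cartpt for SCI alone and Inhba for sham alone does not mean that they differed between SCI and sham. Between SCI and sham none was called, and Tac1, which encodes substance P, had a log2 change of -0.14, Gal of 0.25 and Cartpt of -0.19.

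Likeness was measured as the root mean square difference of log2 CPM, centred on the mean over 9 libraries. The 5 genes most like Egr1 were Acap1, Neurl2, Chrac1, Id1 and Smagp, with differences of 0.102 to 0.127, where the median over the genes ranked was 0.388. Those most like Nr4a1 were Fam118b, Cep95, Zfp105, Gtpbp10 and Sclt1 (0.055 to 0.073, with a median of 0.253). Those most like the mean of the 7 members were Leprot, Zfp839, Rmi1, Sun1 and Usp36 (0.041 to 0.046, with a median of 0.247). That mean averages members that rose and members that fell against naive. Its SD over the libraries was 0.149, beside 0.161 for Nr4a1 and 0.38 for Egr1. A small difference from so flat a profile does not show likeness to any single member. The genes ranked were tested genes with a gene symbol rather than a placeholder name, and no member was among them.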
